A study of Mus musculus with 9 samples.

Results

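Adrenergic receptors, a receptor kinase, adenylyl cyclases and a phosphatase inhibitor that acts on the same pathway were examined in the pressure-overloaded mouse heart. The list named 9 genes, and its members were all probe sets that the platform annotation pairs with exactly 1 gene symbol equal to a listed name. This gave 14 probe sets of 7 genes, of 45037 probe sets and 18193 genes in all: Adra1b, Adcy4, Adcy6 and Ppp1r1a with 1 probe set each, Grk5 with 2, and Adcy5 and Adcy9 with 4 each. No probe set was paired with Adrb1, the beta1 receptor gene, or with Adra1a, the alpha1A receptor gene, so these receptors were not analysed here. RNA from the left ventricle of male C57BL/6 mice had been hybridised to Affymetrix arrays. The TAC group (n = 4 arrays) had undergone transaortic constriction, a narrowing of the aorta that raises the pressure load on the left ventricle, 6 weeks before, and the sham group (n = 5 arrays) a sham operation at the same interval. Neither group carried an engineered allele or received a drug, as far as the labels say, and ages are not given. The arrays hold whole ventricular tissue, in which fewer cells of a type and less RNA per cell cannot be told apart. Sham replicate 2 stood apart from the other arrays, with the lowest limma array weight, 0.333, where the other weights ran from 0.666 to 1.956, so the main results are also given without it.

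Noradrenaline and adrenaline act on the heart mainly through beta-adrenergic receptors, which couple to the stimulatory G protein and switch on adenylyl cyclase. The enzyme makes cyclic AMP (cAMP), which activates protein kinase A, and this kinase phosphorylates calcium-handling and contractile proteins and so raises the rate and force of contraction. G protein-coupled receptor kinases phosphorylate occupied receptors, after which arrestins bind and uncouple them. Alpha1 receptors couple instead to Gq and phospholipase C, a route linked to hypertrophic growth. The product of Ppp1r1a, inhibitor-1, blocks protein phosphatase 1 once protein kinase A has phosphorylated it, and thereby prolongs the effect of cAMP.

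The receptor kinase gene Grk5 was higher in the TAC ventricles, and the adenylyl cyclase genes Adcy5, Adcy6 and Adcy9 and the inhibitor gene Ppp1r1a were lower. Adra1b and the cyclase gene Adcy4 did not pass the test. Adcy5 passed at only 1 of its 4 probe sets, and the probe set of Ppp1r1a no longer passed without any 1 of 8 of the 9 arrays. Values are RMA values on a log2 scale, and differences are TAC minus sham on that scale with the standard error (SE) of a limma fit over all 45037 probe sets. A probe set was called at a Benjamini-Hochberg adjusted p below 0.05. Of the 14 member probe sets 7 were called lower, against a background of 8.86% of all probe sets, and 2 were called higher, against 8.87%. At the brightest probe set of each gene, in a fit over 18193 genes, 4 of 7 members were called lower, against 12.3% of genes, and 1 was called higher, against 12.8%. TAC and sham arrays were fully separated in 8 member probe sets, against 19.8% of all probe sets. The median difference was -0.33 over the member probe sets and -0.01 over all probe sets. All 4 probe sets of Adcy9 are among the 7 called lower. The members were chosen with earlier results of these data known, so these counts and shares are no test of the pathway as a whole.

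**Figure D1:**
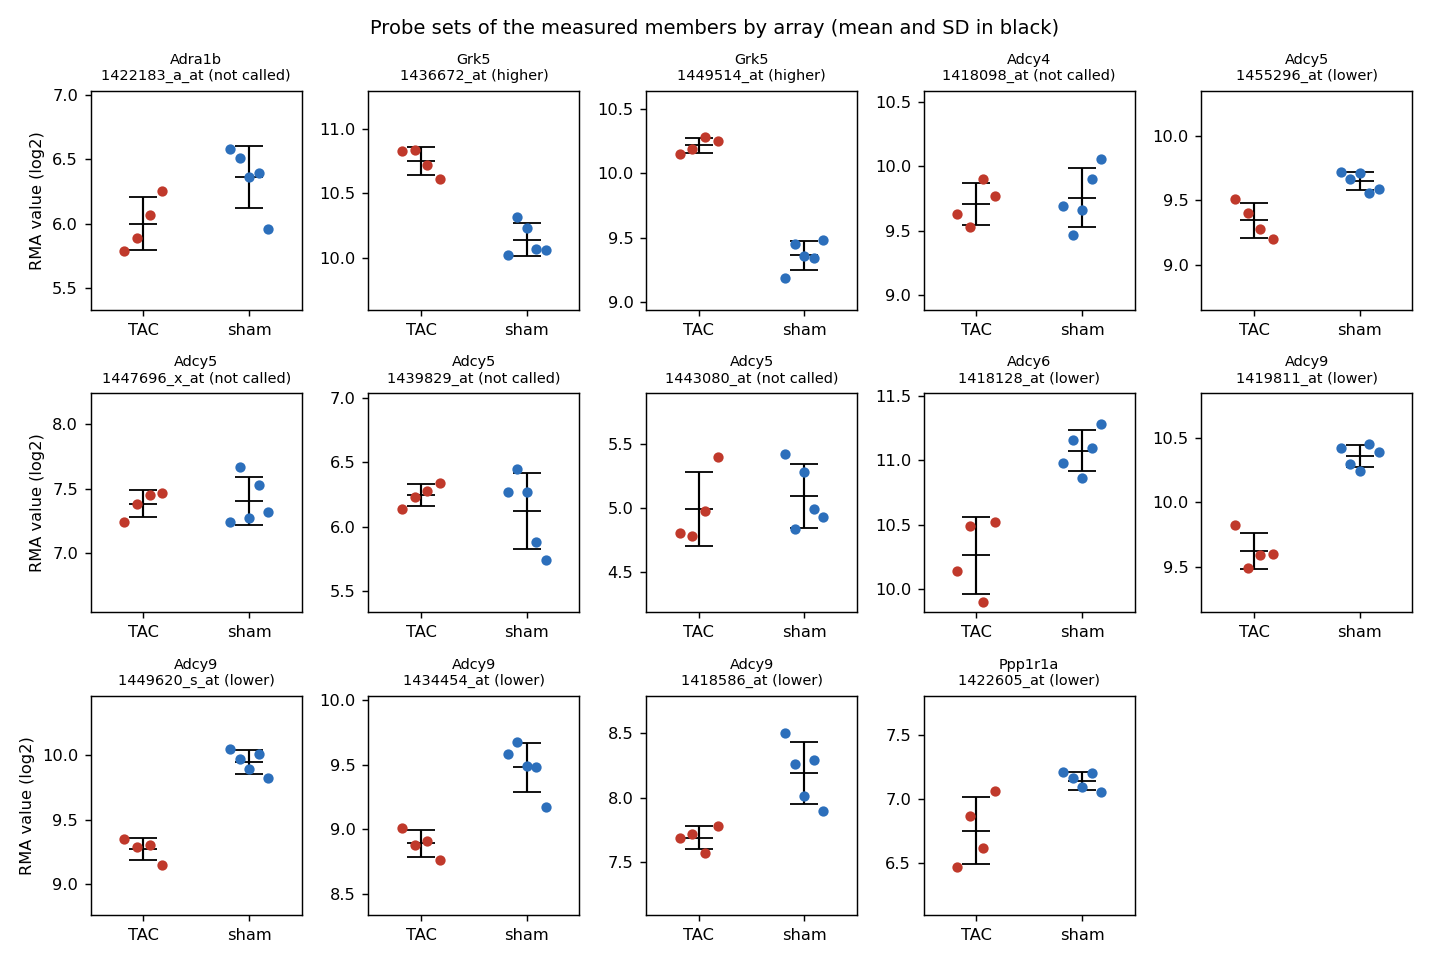
RMA value (log2) of every probe set of the 7 measured genes in each of the 4 TAC arrays (red) and 5 sham arrays (blue), with the mean and SD in black; every panel spans the same range on its vertical axis. Both Grk5 probe sets lie higher in all TAC arrays, whereas the Adcy6 and the 4 Adcy9 probe sets lie lower in all of them.

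Sequence around the transcription start was read for the called members that have an entry in the RefSeq promoter table (build GRCm38.p6, 250 bases before to 50 bases after the start). Of the 9 listed genes 6 had an entry. The 3 called genes with an entry are shown, since Grk5 was higher and Adcy5 and Adcy9 were lower in TAC. Each window runs 5′ to 3′ on the strand of its gene. Capitals mark matches on either strand to the GC box GGGCGG or to TGACG, the core of the cAMP response element, neither of which overlapped the other.
Grk5 promoter window, chr19:60889499-60889798, plus strand: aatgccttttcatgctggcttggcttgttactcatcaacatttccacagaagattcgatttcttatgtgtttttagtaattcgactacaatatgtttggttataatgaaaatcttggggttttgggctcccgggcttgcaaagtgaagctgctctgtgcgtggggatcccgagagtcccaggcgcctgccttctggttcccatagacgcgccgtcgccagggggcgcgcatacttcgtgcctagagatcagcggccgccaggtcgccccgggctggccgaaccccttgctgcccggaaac
Adcy5 promoter window, chr16:35154614-35154913, plus strand: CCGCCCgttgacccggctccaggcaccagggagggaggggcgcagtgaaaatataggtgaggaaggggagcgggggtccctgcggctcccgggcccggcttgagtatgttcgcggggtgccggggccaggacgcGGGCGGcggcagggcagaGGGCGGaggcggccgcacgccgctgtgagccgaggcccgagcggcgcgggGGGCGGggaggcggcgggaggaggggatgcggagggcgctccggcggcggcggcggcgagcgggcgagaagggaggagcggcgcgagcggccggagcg
Adcy9 promoter window, chr16:4420449-4420748, minus strand: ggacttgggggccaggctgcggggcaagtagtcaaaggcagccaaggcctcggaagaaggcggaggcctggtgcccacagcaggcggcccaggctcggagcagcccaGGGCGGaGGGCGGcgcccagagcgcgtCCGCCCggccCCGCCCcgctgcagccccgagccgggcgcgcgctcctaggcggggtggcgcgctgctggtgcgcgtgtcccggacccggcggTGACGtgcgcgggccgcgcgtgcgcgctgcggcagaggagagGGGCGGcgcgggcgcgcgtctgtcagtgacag
The Adcy9 window held 5 GC boxes and 1 TGACG, at position -24 from the start site, and the Adcy5 window held 4 GC boxes and no TGACG. The Grk5 window held neither motif. GC boxes were found in 35.7% and TGACG in 20.8% of all 32851 promoter windows. The full element TGACGTCA, found in 1.79% of windows, the AP-1 motif TGANTCA (7.81%), the MCAT motif CATTCC (14.7%) and TATAAA (13.6%) were in none of the 3 windows. The GC content was 79.0% in the Adcy5 and 78.3% in the Adcy9 window and 54.3% in the Grk5 window, against a median of 52.7%. These matches describe the letters of the windows and are not binding sites. By the RefSeq gene table Adcy5 and Adcy9 lie on chromosome 16, Adcy6 and Ppp1r1a on 15, Adcy4 on 14, Adra1b on 11 and Grk5 on 19.

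Among the receptors, the data hold the alpha1B receptor gene Adra1b, at a single probe set (1422183_a_at) near the middle of the intensity range. Its values were 5.79, 5.89, 6.07 and 6.25 in TAC replicates 1 to 4, against 6.58, 6.51, 6.36, 6.39 and 5.96 in sham replicates 1 to 5. All 4 TAC values lay below the sham mean, but sham replicate 5 lay within the TAC range, so the groups overlapped. The difference of -0.36 (SE 0.14, 95% confidence interval -0.66 to -0.06) had an adjusted p of 0.0999 in limma and did not pass. Without sham replicate 5 it was -0.46 and passed (adjusted p = 0.0209 in limma). It did not pass on leaving out any 1 of the other 8 arrays, with differences of -0.44 to -0.29 and adjusted p up to 0.25. In the gene-level fit it also passed without TAC replicate 4 (adjusted p = 0.0474). The interval reaches from a change close to 0 to one near that of Adcy9.

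Grk5 encodes a kinase that phosphorylates agonist-occupied adrenergic receptors and that can also enter the nucleus of cardiac myocytes. Its brighter probe set (1436672_at) read 10.83, 10.84, 10.72 and 10.61 in the TAC arrays, against 10.02, 10.32, 10.23, 10.07 and 10.06 in the sham arrays. The other (1449514_at) read 10.15, 10.19, 10.28 and 10.25 in TAC, against 9.19, 9.45, 9.36, 9.34 and 9.48 in sham. At both probe sets every TAC array lay above every sham array, with 0.29 and 0.67 between the nearest values of the groups. Grk5 rose by 0.61 (SE 0.09, adjusted p = 0.000849 in limma) at the brighter probe set, which is 1.53-fold. It rose by 0.86 (SE 0.08, adjusted p = 4.97e-05), or 1.81-fold, at the other. The TAC arrays differed little among themselves, with SDs of 0.11 and 0.06, and both calls held on leaving out any 1 of the 9 arrays, with differences of 0.58 to 0.66 and of 0.81 to 0.88.

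**Figure D2:**
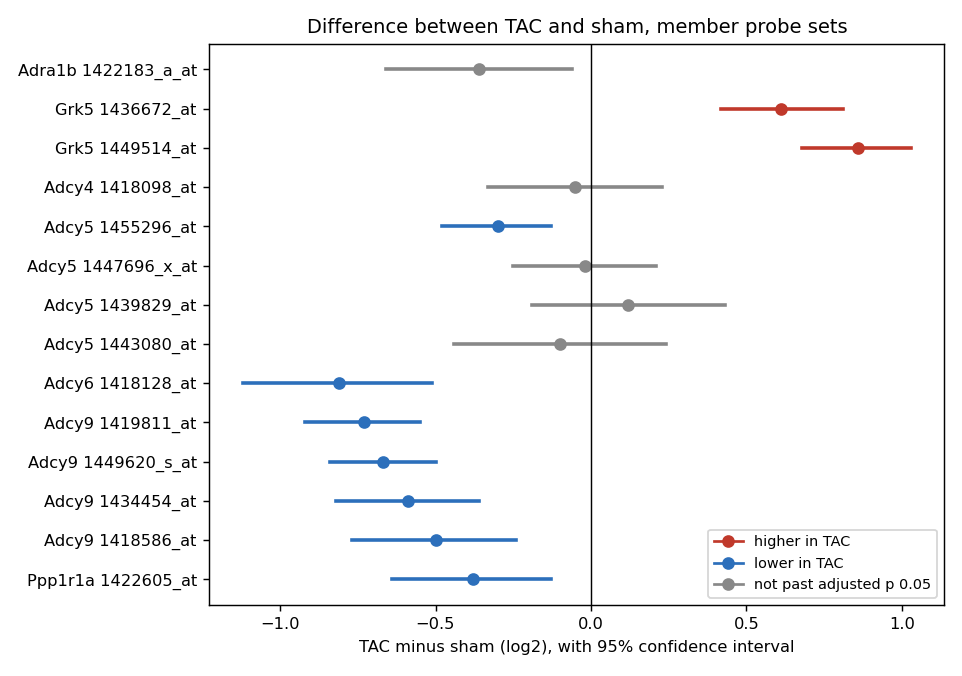
Difference between TAC and sham (log2, dots) with its 95% confidence interval (lines) for the 14 member probe sets, from the limma fit over all probe sets. Grk5 stands at 0.61 and 0.86, Adcy6 at -0.81 and the 4 Adcy9 probe sets between -0.73 and -0.50, while 3 of the 4 Adcy5 probe sets lie around 0.

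Adcy5 and Adcy6 encode the adenylyl cyclases regarded as the main forms of cardiac myocytes, and both enzymes are inhibited by calcium and by the inhibitory G protein. Adcy6 (1418128_at) read 10.14, 10.49, 9.90 and 10.52 in the TAC arrays, against 10.98, 11.16, 10.86, 11.10 and 11.28 in the sham arrays. All TAC values were below all sham values, and the TAC arrays were the more spread, with an SD of 0.30 against 0.16 in sham. Adcy6 fell by 0.81 (SE 0.14, adjusted p = 0.00234 in limma), to 56.9% of the sham level, the largest decrease among the member probe sets. It passed on leaving out any 1 of the 9 arrays, where TAC replicate 1 gave the highest adjusted p (0.0104).

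Adcy5 was the member whose probe sets differed most in their result. Its brightest probe set (1455296_at) read 9.51, 9.40, 9.28 and 9.20 in TAC, against 9.72, 9.67, 9.71, 9.56 and 9.59 in sham. The groups did not overlap there, but only 0.06 separated TAC replicate 1 from sham replicate 4. That probe set fell by 0.30 (SE 0.08, adjusted p = 0.0247 in limma), 1.23-fold, and the call ended without TAC replicate 3 (adjusted p = 0.0785), TAC replicate 4 (0.0633) or sham replicate 3 (0.0591). The other 3 probe sets, 1447696_x_at, 1439829_at and 1443080_at, overlapped between the groups and differed by -0.02, 0.12 and -0.10, with adjusted p of 0.931, 0.614 and 0.724. In Affymetrix naming the ending x_at marks probes that may bind other transcripts too. By mean value 1439829_at and 1443080_at stood at the percentiles 44.3 and 26.3 of all probe sets, and the brightest at 82.1. With the mean of the 4 probe sets in place of the brightest, Adcy5 differed by -0.07 and was not called.

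Adcy9 encodes a widely expressed cyclase that responds weakly to forskolin, the plant compound that activates the other membrane-bound forms. Its brightest probe set (1419811_at) read 9.82, 9.49, 9.59 and 9.60 in TAC, against 10.42, 10.30, 10.24, 10.45 and 10.39 in sham. The probe set 1449620_s_at, whose ending marks probes shared by several transcripts, read 9.35, 9.29, 9.30 and 9.15 in TAC, against 10.05, 9.97, 9.89, 10.01 and 9.82 in sham. In both, every TAC array was at least 0.42 below every sham array. Adcy9 fell by 0.73 (SE 0.08, adjusted p = 0.00021 in limma) and by 0.67 (SE 0.08, adjusted p = 0.000201) at these probe sets. The other 2 probe sets fell too, 1434454_at by 0.59 (SE 0.10) and 1418586_at by 0.50 (SE 0.12), again with no overlap between the groups. All 4 probe sets together ranged from 60.2% to 70.6% of the sham level. The call of 1418586_at, the dimmest, ended without TAC replicate 3 (adjusted p = 0.0527), and the other 3 calls held without any 1 array.

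Adcy4, a cyclase stimulated by G protein beta-gamma subunits, read 9.63, 9.53, 9.90 and 9.77 in TAC, against 9.69, 9.47, 9.66, 9.90 and 10.06 in sham (1418098_at). The TAC values lay inside the sham range. The difference was -0.05 (SE 0.13, 95% confidence interval -0.33 to 0.23, adjusted p = 0.844 in limma), so the interval leaves out decreases as large as those of Adcy6 and Adcy9 at their estimates but not one of the size of Adcy5.

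Whether the cyclase genes moved unequally was tested on the difference between the genes within each array, at the brightest probe sets, with two-sided exact permutation tests over all splits of the arrays into groups of 4 and 5. The smallest p these splits allow is 0.00794, and p-values were adjusted over the 6 pairs of the 4 measured cyclases. The size of such a difference depends on the probes, so only its shift between the groups is read. Adcy6 minus Adcy9 was 0.64 ± 0.38 in TAC and 0.72 ± 0.15 in sham (SD, n = 4 and 5), a shift of -0.08 (exact permutation p = 0.667), although the TAC arrays ran from 0.30 to 1.00. Against Adcy4, Adcy6 shifted by 0.77 and Adcy9 by 0.68 in favour of Adcy4, each with no overlap between the groups (exact permutation p = 0.00794, adjusted p = 0.0159). Adcy5 minus Adcy9 shifted by 0.43, again without overlap (exact permutation p = 0.00794, adjusted p = 0.0159). Adcy5 minus Adcy6, the only planned pair among the 6, shifted by 0.51, and the groups overlapped. Its exact permutation p of 0.0397 did not pass after adjustment together with the other pairs (0.0595), which were added after the data were seen. Adcy4 minus Adcy5 shifted by 0.25 (exact permutation p = 0.214, adjusted p = 0.257). In pairs added after the data were seen, the decreases of Adcy9 and Adcy6 were thus larger than the change of Adcy4. That of Adcy9 was also larger than that of Adcy5 at its brightest probe set.

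**Figure D3:**
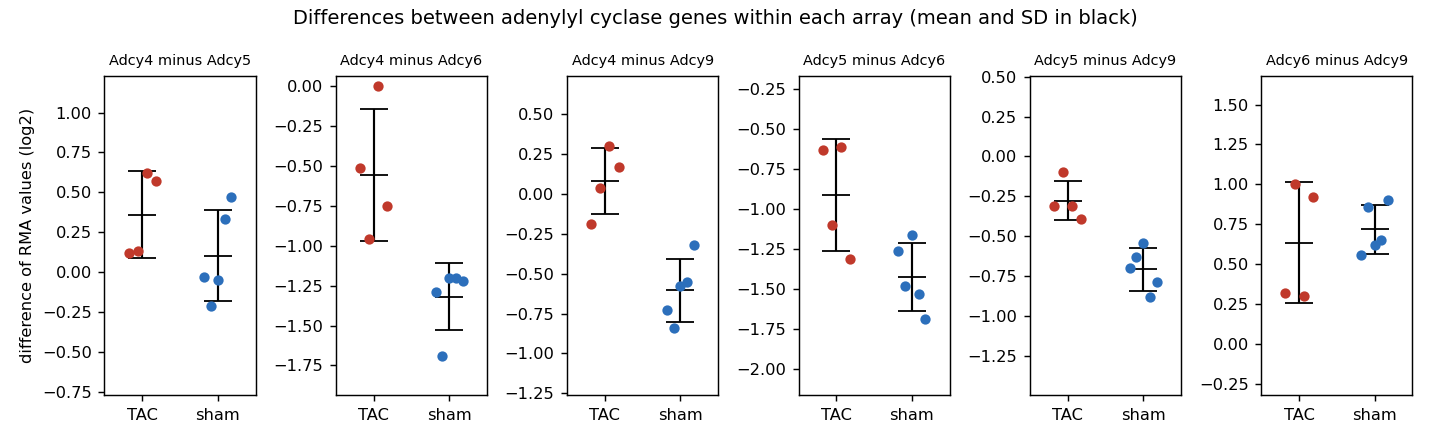
Difference between the RMA values (log2) of 2 adenylyl cyclase genes within each array, for the 4 TAC (red) and 5 sham (blue) arrays, with mean and SD in black; all panels span the same range. Adcy4 minus Adcy6, Adcy4 minus Adcy9 and Adcy5 minus Adcy9 are higher in every TAC array, and Adcy6 minus Adcy9 overlaps, with a shift of -0.08.

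Ppp1r1a (1422605_at) read 6.47, 6.87, 6.62 and 7.06 in TAC, against 7.21, 7.16, 7.09, 7.20 and 7.05 in sham. TAC replicates 1 to 3 lay below the sham range and TAC replicate 4 inside it, so the groups overlapped, and the SD was 0.26 in TAC against 0.07 in sham. Ppp1r1a fell by 0.38 (SE 0.11, adjusted p = 0.0407 in limma), to 76.6% of the sham level. The call ended on leaving out any 1 array other than TAC replicate 4, with adjusted p of 0.0534 to 0.123. In the gene-level fit the call ended without any 1 of 4 arrays.

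The members differed in how steadily the TAC arrays held their values. TAC replicate 4 had the highest TAC value of Adra1b, Adcy6 and Ppp1r1a and the lowest of Grk5 at its brighter probe set. These were the TAC values nearest to the sham mean. Its value of Adcy5 at the brightest probe set was the lowest in TAC and the farthest from the sham mean. No array was thus nearest to sham in all members. Without sham replicate 2 Grk5 differed by 0.66 and 0.88, Adcy6 by -0.79 and Adcy9 at its brightest probe set by -0.75, all still called, while Ppp1r1a differed by -0.38 and was not called at its probe set (adjusted p = 0.0576 in limma) but was in the gene-level fit (0.042). By the smallest root mean square difference over the 9 arrays, after subtraction of each gene's sham mean, the profiles most like Adcy6 were those of Rbm38 (0.104) and Carns1 (0.107). Those most like Adcy9 were Cenpv (0.0690) and Nectin2 (0.0752), and those most like Grk5 were St14 (0.0703) and Ikbip (0.0720). For Adcy5 they were Sik2 (0.0319) and Ttc9c (0.0410), and for Ppp1r1a Gsta2 (0.0852) and Phyhip (0.0853). Of 16287 genes compared, 73 came within 0.2 of Adcy6 and 3544 within 0.2 of Adcy5, so for Adcy5 such likeness is common.

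The other genes of adrenergic and cAMP signalling went in both directions. Of 102 genes in 10 lists 89 were paired with a probe set and are called measured here, of which 19 were called higher and 12 lower in the gene-level fit, with a median difference of 0.00, the same as over all 18193 genes. These are shares of 21.3% higher and 13.5% lower, against 12.8% and 12.3% of all genes. With each array centred on the median of the tested genes the split was 14 higher and 16 lower, and over all genes it was 1978 higher and 2908 lower, against 2333 and 2233 without centring. The adjusted p-values from here on are limma's over all genes, at the brightest probe set of each gene.

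Of the 6 other adrenoceptor genes only Adra2c, the alpha2C receptor gene, was measured, and its difference of 0.03 was not called (adjusted p = 0.903). Of 7 measured genes of receptor kinases and arrestins 3 rose and 0 fell in limma, where 0 had an unadjusted p below 0.05 in the downward direction. Arrb1, the beta-arrestin 1 gene, read 8.54, 8.68, 8.78 and 8.48 in TAC, against 8.18, 7.53, 8.12, 8.07 and 8.12 in sham, and rose by 0.61 (SE 0.13, adjusted p = 0.00708). Sham replicate 2 was the lowest of these arrays, and without it the rise was 0.49. Arrb2 (0.45) and the arrestin-domain gene Arrdc3 (0.41) rose as well, with overlap between the groups, and their calls ended without any 1 of 4 and of 6 arrays (adjusted p up to 0.085 and 0.0827). The kinase genes Grk3 and Grk6 differed by -0.14 and -0.07 and were not called, and Grk2 was not analysed here.

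Of 8 other genes of cyclases and cyclase-associated proteins 2 rose and 2 fell. Adcy7 read 12.41, 12.45, 12.51 and 12.34 in TAC, against 11.07, 10.73, 11.12, 11.20 and 11.39 in sham, with no overlap. It rose by 1.33 (SE 0.12, adjusted p = 2.9e-05), or 2.51-fold, and its other 2 probe sets by 1.58 and 2.01, opposite to the 3 called cyclases among the members. Adcy2 rose by 0.47 and Adcy1 and Adcy8 fell by 0.55 and 0.40, all from dim probe sets with means of 4.53 to 6.12. Adcy1 was not called with the mean of its probe sets (-0.19), and Adcy8 lost its call without any 1 of 7 arrays. Adcy8 was also not called in the fit over all probe sets (adjusted p = 0.0588 in limma). Adcy7 is known to be strongly expressed in myeloid cells. Of 8 macrophage markers 6 rose, and the mean marker level was 9.99 to 10.11 in the TAC arrays and 9.28 to 9.67 in the sham arrays. Cd68 (0.47) and Cd163, which went the other way (-0.40), were not called (adjusted p = 0.0824 and 0.0564). The part of macrophages in the rise of Adcy7 was not tested.

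Of 11 measured genes of G proteins and their chaperones 4 rose and 2 fell. Gnas, which encodes the stimulatory alpha subunit, differed by -0.05 and was not called (adjusted p = 0.600). Gnao1, the gene of the Go alpha subunit, read 8.70, 8.46, 8.61 and 9.01 in TAC, against 8.16, 7.83, 7.91, 7.88 and 7.81 in sham, and rose by 0.78 (SE 0.11, adjusted p = 0.000743). Its other 2 probe sets differed by 0.12 and 0.19 and were not called. Among the inhibitory subunit genes Gnai2 rose by 0.23, while Gnai1 fell by 0.57 (SE 0.13, adjusted p = 0.00809). Gnai3 rose by 0.34 (adjusted p = 0.0337), with overlap between the groups, and its call was not followed singly under the alternatives. In the fit over all probe sets neither probe set of Gnai2 was called (adjusted p = 0.0549 and 0.362 in limma). The chaperone genes Ric8a and Ric8b, whose products fold G protein alpha subunits, are counted among these 11 genes. Ric8a rose by 0.31 and Ric8b fell by 0.48. The calls of Gnai2 and Ric8a ended without any 1 of 6 and of 4 arrays (adjusted p up to 0.0784 and 0.0633).

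Downstream of cAMP, 2 of 9 genes of protein kinase A and its inhibitors rose and 0 fell in limma, although 1, the inhibitor gene Pkig (-0.18), was lower at an unadjusted p below 0.05. Prkar1a, a regulatory subunit gene, rose by 0.48 (SE 0.10, adjusted p = 0.00655) and the kinase inhibitor gene Pkib by 0.62, and the catalytic subunit gene Prkaca differed by -0.15 (adjusted p = 0.207). The list of anchoring proteins of the kinase held 12 genes, among them the sarcomere gene Mypn, which was not called. In it Akap13 and Akap6 rose by 0.28 and 0.20, and Akap1 (-0.54), Akap7 (-0.32) and Cmya5 (-0.31) fell. The call of Akap6 ended without any 1 of 6 arrays, and in the fit over all probe sets neither of its probe sets was called (adjusted p = 0.0595 and 0.795 in limma). With the mean of the probe sets Akap7 (-0.06) and Akap13 (0.11) were not called. Of 10 other effectors Popdc3, of a family of cAMP-binding membrane proteins, rose by 0.51 and Crem, a cAMP response factor gene, by 0.68. Crem had 3 other probe sets from -0.25 to 0.41, none called. Around protein phosphatase 1, the target of inhibitor-1, 1 of 11 genes rose and 1 fell, both of them genes of glycogen-targeting subunits. Ppp1r3c rose by 0.50 and Ppp1r3d fell by 0.68.

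**Figure D4:**
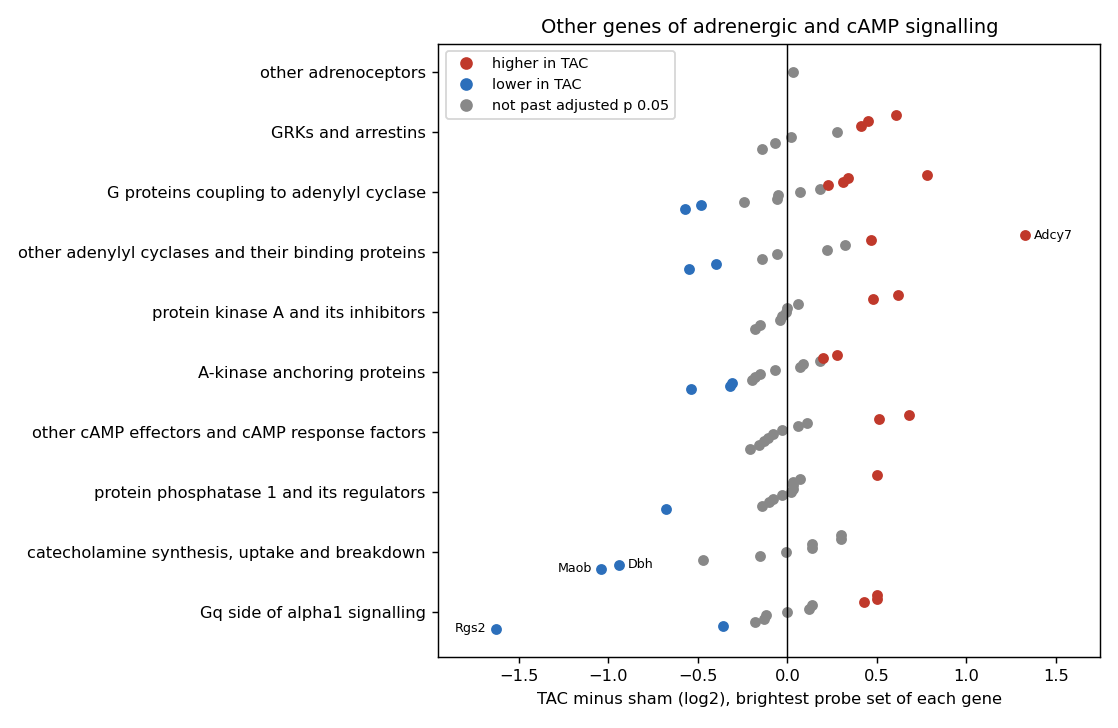
TAC minus sham (log2) of 89 other genes of adrenergic and cAMP signalling, 1 dot per gene at its brightest probe set, in 10 lists, with called genes in colour. Most dots lie near 0, and Adcy7 at 1.33, Maob at -1.04 and Rgs2 at -1.63 lie farthest out.

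Of 9 genes of catecholamine synthesis, uptake and breakdown 2 fell and 0 rose in limma, where 0 were higher at an unadjusted p below 0.05. Maob, the monoamine oxidase B gene, read 9.31, 9.28, 9.23 and 9.35 in TAC, against 10.27, 10.73, 10.25, 10.27 and 10.12 in sham, and fell by 1.04 (SE 0.11, adjusted p = 0.000112). Dbh, which encodes the enzyme that makes noradrenaline from dopamine, fell by 0.94 (SE 0.16, adjusted p = 0.00171), and all 3 of its probe sets were called lower. Dbh marks sympathetic nerves, whose part in its decrease was not tested. Ddc, the gene of the preceding enzyme in the pathway, was lower by 0.47 but was not called (adjusted p = 0.0617 in limma). Th, the gene of the enzyme before Ddc, was dim at 3.81 in TAC and 3.67 in sham and was not called. Slc6a2 of the same list (-0.01) and the nerve marker gene Npy (0.01) were not called either, with TAC means of 4.9 and 5.12. On the Gq side of alpha1 signalling, 3 of 11 genes rose and 2 fell. Rgs2, whose product ends Gq signalling by speeding GTP hydrolysis, read 9.03, 8.97, 8.43 and 9.14 in TAC, against 10.17, 11.08, 10.58, 10.69 and 10.07 in sham. It fell by 1.63 (SE 0.21, adjusted p = 0.000346), 3.08-fold, the largest difference in the 10 lists at the brightest probe sets. The kinase C genes Prkca and Prkcd and the phospholipase gene Plcb1 rose by 0.43 to 0.50, and Prkce fell by 0.36. In the fit over all probe sets, all 3 of Prkca were called higher and 3 of 4 of Prkce lower. The other 4 of Plcb1, from -0.14 to 0.29, were not called there, nor was either of the 2 of Prkcd (0.50 and -0.10). The calls of Prkcd and Prkce ended without any 1 of 7 and of 5 arrays (adjusted p up to 0.125 and 0.0774).

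The tissue markers were measured beside these results. Cardiomyocyte markers averaged 13.76 to 13.80 in the TAC arrays and 13.85 to 13.88 in the sham arrays, with 2 of 10 lower, and stood near the upper end of the intensity range. Fibroblast markers averaged 11.57 to 11.91 in TAC and 10.61 to 11.01 in sham, with 6 of 8 higher. The largest difference among these was that of Postn (3.28), while Pdgfra (0.04) and Tcf21 (0.13) were not called. Endothelial markers averaged 10.16 to 10.37 in TAC and 10.11 to 10.54 in sham, with 1 of 8 lower. Smooth muscle and pericyte markers averaged 9.63 to 9.89 in TAC and 9.60 to 9.90 in sham, with 2 of 8 higher and 3 lower. Of 6 measured adipocyte markers none was called in limma, with means of 5.96 to 5.99 in TAC and 5.97 to 6.14 in sham, although Adipoq was lower at an unadjusted p below 0.05. Of 6 measured nerve markers only Dbh was called. The means of the fibroblast and macrophage markers differed between the groups in the same arrays as the members. The part of these cells in the differences of Grk5 and of the cyclase genes was not tested.

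**Figure D5:**
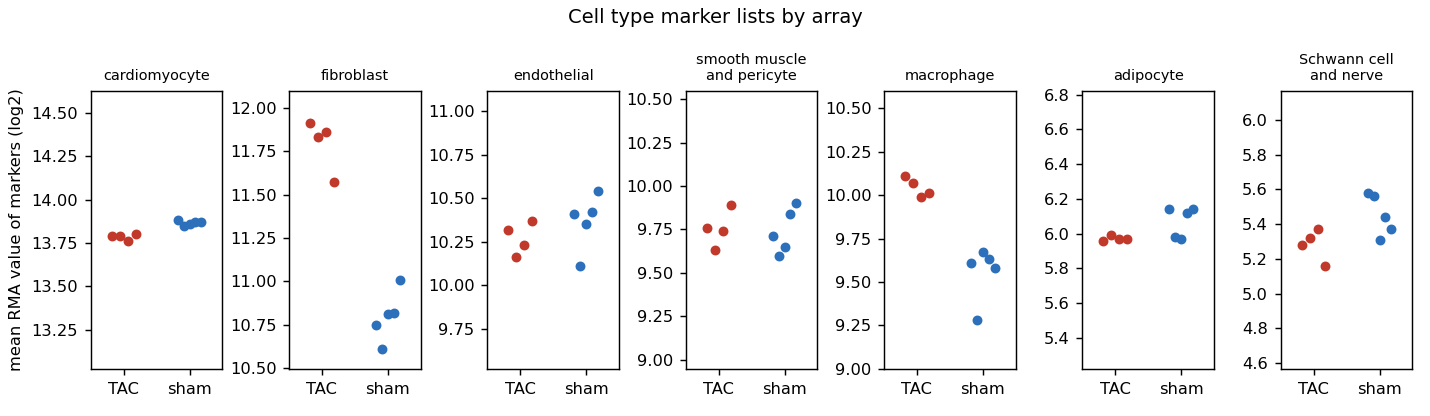
Mean RMA value (log2) of the measured markers of each cell type in the 4 TAC (red) and 5 sham (blue) arrays; all panels span the same range. The means of fibroblast and macrophage markers are higher in every TAC array, those of cardiomyocyte markers are slightly lower, and those of endothelial and smooth muscle markers overlap.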

How the data were processed

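RNA of left ventricular tissue from 4 TAC and 5 sham arrays was analysed. The authors deposited log2 values. The submitters' processing notes name RMA, and its version and the genome build are not given in the sources used here. All arrays hold the same sorted values, with a median of 6.57, so a shift of all genes together could not be seen. Whether every array comes from a separate animal is not stated. The p-values therefore reflect the spread among these arrays, which may be technical, and the number of arrays limits the precision.

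Of 45101 probe sets 64 controls were left out. The platform annotation gives 1 symbol for 34945 of the others, several for 932 and none for 9160, and only those with 1 were named. TAC was compared with sham with lmFit and eBayes of limma 3.58.1, without covariates, under R 4.3.3, on all probe sets and on the brightest probe set of each gene, with Benjamini-Hochberg adjustment over the whole table. On simulated data with 45037 probe sets, of which only a small share was changed, all upward, the fit recovered 53.7% of differences of 0.5 and 86.6% of differences of 1. It called 169 probe sets there, against 3991 lower and 3996 higher in the real data. Recovery depends on the share that is changed, so these rates may not hold for the real data. Pairs of cyclase genes were compared by exact permutation over the arrays, and 5 of the 6 pairs were added after the data were seen. Alternatives, each for the results it applies to, were probe sets averaged per gene, the brightest with a mean below 13, only features above the median level, trend and robust fitting, array weights, median centring, cyclic loess, stricter thresholds and leaving out each array. In each pathway list up to 3 called genes a direction with the smallest p were named, or the 2 with the smallest p where none was called, and for each called member the 2 genes most like it. Gnai3, Gnas, Grk3, Grk6, Prkaca, Pkig, Mypn, Ddc, Th, Slc6a2 and the markers Adipoq, Cd68, Cd163, Pdgfra, Tcf21, Postn and Npy were named after their values were seen. The members and lists were chosen with earlier results of these data known. Planned pairs that need Adrb1, Adra1a or Grk2 were not analysed here. Promoter sequences are from RefSeq.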

Additional observations from a re-analysis of the deposited data

Results flagged for a closer look

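Of 104 groups of samples examined, 7 held 1 array whose gap to its nearest neighbour exceeded Dixon's 95% critical value as a share of the group's range, and chance gives about 1 in 20. No member was among them. Sham replicate 2 was the array in 4 of the 7. It read 7.53 for Arrb1, where the other sham arrays read 8.07 to 8.18 (0.823 of the range), and 10.72 for Popdc3, where the others read 11.08 to 11.17 (0.786). It read 10.73 for Maob, where the others read 10.12 to 10.27 (0.751), and its mean of the macrophage markers was 9.28, where the others had 9.58 to 9.67 (0.768). Sham replicate 5 read 5.62 for Adra2c, where the others read 6.04 to 6.16 (0.765), and 8.28 for Ppp1r3d, where the others read 8.53 to 8.63 (0.712). TAC replicate 4 read 12.33 for Ppp1r3c, where the other TAC arrays read 12.58 to 12.60 (0.927).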

How the results depend on the processing

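No called difference changed sign under any alternative tried, whereas differences near 0 that were not called, such as that of Adcy4 (-0.12 to 0.03), did. The 2 higher member probe sets and the 1 higher member gene were counted in every setting. The 7 lower member probe sets became 4 at an adjusted p below 0.01, 4 at a difference of at least 1.5-fold, and 4 to 7 on leaving out each array, with 4 without TAC replicate 3. The 4 lower member genes became 2 at an adjusted p below 0.01 and 2 at 1.5-fold. In the other pathway genes the 12 lower became 4 at 1.5-fold, and the 19 higher became 9 at an adjusted p below 0.01, 5 at 1.5-fold and 11 with the mean of probe sets, which ended the calls of Arrb2, Ric8a, Gnai2, Akap6, Akap13, Crem, Plcb1 and Prkcd among the higher genes and of Adcy1 and Akap7 among the lower. Median centring changed these counts to 14 higher and 16 lower. Among the genes followed singly, which leave out Gnai3, it ended the calls of Arrdc3 (adjusted p = 0.0791 in limma), Ric8a (0.0543), Gnai2 (0.0632) and Akap6 (0.149). Cyclic loess ended that of Prkce (0.0505). The shifts of Adcy4 minus Adcy6, Adcy4 minus Adcy9 and Adcy5 minus Adcy9 kept an unadjusted exact permutation p below 0.05 in every setting run. Leaving out 1 array was no test of these shifts, since groups without overlap stay without overlap when an array is removed. The shift of Adcy5 minus Adcy6, 0.51, ranged from 0.41 to 0.64 on leaving out each array, with exact permutation p of 0.0571 to 0.0857 for 8 of 9 arrays and 0.0179 without TAC replicate 4. Adra1b was called with array weights (-0.40, adjusted p = 0.0249 in limma). The causes were not tested. No paired analysis was possible because the labels give no replicate numbers that the groups share.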
